A study of Homo sapiens with 8 samples.

Results

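The selenocysteine tRNA (tRNA-SeC-TCA) was followed across 8 iCLIP libraries made from cells expressing a tagged DUS2L or DUS1L, with and without 5-chlorouridine (5-ClUrd). Its members were all sense-strand sites on references whose names begin with tRNA-SeC, which gave 2 of the 254 references with sites in the series and 76 of its 16258 sense-strand sites. The 2 references were tRNA-SeC-TCA-1-1 and tRNA-SeC-TCA-2-1. The matching genes in RefSeq (GRCh38.p14) are TRU-TCA1-1, of 87 bases, on chromosome 19 from 45478601 to 45478687, and TRU-TCA2-1, of 84 bases, on chromosome 22 from 44150657 to 44150740, both annotated as tRNA genes.

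The cells were Flp-In T-Rex 293, a human embryonic kidney line modified to express 3xFLAG-DUS2L or 3xFLAG-DUS1L from a tetracycline-inducible copy, so that every library, the untreated ones included, came from cells with an induced, tagged enzyme. Tetracycline at 1 µg/mL was given for 12 h, and fresh medium with the same tetracycline followed for another 12 h, with 100 µM 5-ClUrd in the treated groups. The 4 groups were DUS2L with 5-ClUrd, DUS2L untreated, DUS1L with 5-ClUrd and DUS1L untreated, each with 2 libraries that the series describes as biological replicates. The files hold sites on tRNA and rRNA and no mRNA, so the identity of the cells was not checked against marker genes.

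Selenocysteine tRNA brings selenocysteine to UGA codons that the mRNAs of selenoproteins recode from stop to sense. It is first charged with serine by seryl-tRNA synthetase, and the serine is then converted to selenocysteine on the tRNA. It is the longest of the cytosolic tRNAs, with an extended acceptor stem and a long variable arm, and its described modified bases lie in the anticodon and T loops. Dihydrouridine synthases such as DUS1L and DUS2L reduce uridine to dihydrouridine, mainly in the D loop of tRNA. 5-ClUrd is an analogue of uridine that enters new RNA and can hold such an enzyme on its target base, and iCLIP marks the base at which an immunoprecipitated protein was attached, from where reverse transcription stopped.

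Depth differed between libraries. Sense-strand counts were 370878 and 363024 with DUS2L and 5-ClUrd, 130011 and 172078 with DUS2L untreated, 824657 and 542521 with DUS1L and 5-ClUrd, and 144322 and 7369 with DUS1L untreated. The second untreated DUS1L library was thus the shallowest, and 3 counts in it would be a share of 0.0407%. The highest count of any site was 1436, and 739 sites passed 500 counts in at least 1 library, but none of these lay on the selenocysteine tRNA, whose highest site count was 478. Intervals and floors below cover counting error only.

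Selenocysteine tRNA was recovered mainly with DUS2L and 5-ClUrd. It held 1224 and 1264 sense counts in the treated DUS2L libraries, against 26 and 47 in the untreated DUS2L libraries. With DUS1L it held 89 and 106 counts after treatment, against 3 and 0 without. As a share of all sense counts this was 0.330% and 0.348% in treated DUS2L cells, against 0.0200% and 0.0273% in untreated DUS2L cells. In DUS1L cells the shares were 0.0108% and 0.0195% with 5-ClUrd, against 0.00208% (exact 95% interval 0.000429% to 0.00607%) and 0% without. Both treated DUS2L libraries lay above both untreated ones, and both treated DUS1L libraries lay above the first untreated one. In the shallow second untreated DUS1L library a count of 0 allows a share of up to 0.0407%, taken as 3 counts (exact 95% upper limit 0.05005%), more than either treated DUS1L library held, so that a share of that size was not detectable there.

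The group means were 0.339% ± 0.0128 for treated DUS2L, 0.0237% ± 0.00517 for untreated DUS2L, 0.0152% ± 0.00618 for treated DUS1L and 0.00104% ± 0.00147 for untreated DUS1L (SD, n = 2 each). Treated DUS2L lay 0.315 percentage points above untreated DUS2L and 0.324 above treated DUS1L, many times the SDs of these groups. Untreated DUS2L and treated DUS1L were close neighbours. Their libraries did not overlap, but the counting interval of the lower untreated DUS2L library, 0.0131% to 0.0293%, covered that of the higher treated DUS1L library, 0.0160% to 0.0236%, and the difference between these groups was not tested. Pairs of groups with 2 libraries each cannot give an exact two-sided permutation p below 0.333, and each of the 4 pairs compared gave that value. All 4 DUS2L libraries against all 4 DUS1L libraries differed by 0.173 percentage points (exact two-sided permutation p = 0.0286, the smallest that 4 against 4 allows). This test left treatment out of account and took the DUS1L library with 0 counts as a share of 0. The floor of that library, 0.0407%, lies above both untreated DUS2L shares, 0.0200% and 0.0273%, so full separation of the enzymes is not shown. How much of the tRNA the cells held and how often the enzyme was attached to it cannot be told apart in these libraries, which have no input to set them against.

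**Figure D1:**
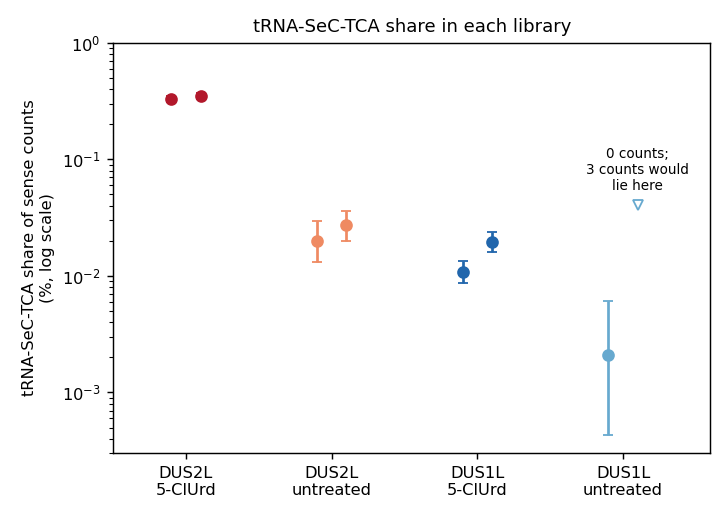
Share of sense-strand counts that lay on the selenocysteine tRNA in each of the 8 libraries, in percent on a log axis, with exact 95% intervals from the counts. The treated DUS2L libraries lie at 0.330% and 0.348%, above all others, and the open point marks the untreated DUS1L library with 0 counts, drawn at the share of 3 counts.

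Within DUS2L cells the share of the family was higher with 5-ClUrd by 3.83 ± 0.30 on the log2 scale (SE, edgeR's quasi-likelihood test, adjusted p = 3.91e-05), the sixth highest change of 55 tRNA and rRNA families. Pooled over replicates the ratio of treated over untreated shares was 14.0 (exact 95% interval 11.1 to 17.96). The call stands beside a background in which 52.7% of the 55 families were called higher and 13 families were called lower. The median family was itself 0.86 higher, so that the selenocysteine tRNA lay 2.97 above it on the log2 scale.

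Within DUS1L cells the fitted change was 2.96 ± 1.02 on the log2 scale with an adjusted p of 0.0641 (edgeR's quasi-likelihood test), the ninth highest of 53 families. It missed the threshold of 0.05 in a comparison in which 22.6% of families were called higher and 1 was called lower. The pooled ratio of treated over untreated was 7.21, from 195 counts against 3, with an exact 95% interval of 2.43 to 35.3. Without the shallow second untreated library the change was 2.85 (adjusted p = 0.132, edgeR's quasi-likelihood test). The difference between the DUS2L and DUS1L effects of treatment was 0.90 ± 0.89 on the log2 scale (adjusted p = 0.410, edgeR's quasi-likelihood test) and was not shown, with 10.9% of 55 families called higher and 10 families called lower. Without the first untreated DUS1L library, the only one of its group with counts on this tRNA, the fitted difference was -4.87 with an adjusted p of 0.758, and without the shallow second library it was 0.99 with an adjusted p of 0.447 (edgeR's quasi-likelihood test).

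The enzymes were also set against each other directly. Among treated libraries the share was higher with DUS2L than with DUS1L by 4.48 ± 0.45 on the log2 scale (adjusted p = 6.89e-05, edgeR's quasi-likelihood test), the twelfth highest of 55 families, where 38.2% of families were called higher and 15 were called lower. The pooled ratio of treated DUS2L over treated DUS1L was 23.8 (exact 95% interval 20.5 to 27.6). Among untreated libraries it was higher with DUS2L by 3.59 ± 0.69 (adjusted p = 0.00169, edgeR's quasi-likelihood test), where 47.3% of families were called higher and 23 were called lower. This was the twentieth highest change of 55, and with the median family itself 2.45 higher, the selenocysteine tRNA lay 1.14 above it. That untreated comparison rested on 73 counts against 3, with a pooled ratio of 12.2 and an exact 95% interval of 4.02 to 60.6, and without the first untreated DUS1L library its adjusted p was 0.119. Without the second the difference was 3.49 (adjusted p = 0.00363, edgeR's quasi-likelihood test). The processing notes do not state whether the files of the 2 enzymes were made alike. The names of the deposited site files also differ between them. Enzyme and processing therefore cannot be told apart in any comparison between the enzymes, by family or by position.

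The values above are relative to each library's sense total. Under TMM scaling the median family moved by -0.65 on the log2 scale within DUS2L cells, by -1.03 within DUS1L cells and by -1.06 in the difference of effects. The split of higher against lower families then became 19 against 21 within DUS2L cells, in place of 29 against 13. Within DUS1L cells it became 2 against 8, in place of 12 against 1, and in the difference 0 against 15, in place of 6 against 10. Relative to the median family, the selenocysteine tRNA kept its place, 2.98 above it within DUS2L cells and 1.54 above it within DUS1L cells, where total scaling gave 1.61. In the difference of effects it lay 1.59 above the median family, where total scaling gave 1.21. Its own fitted difference was 0.23 under TMM, in place of 0.90.

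**Figure D2:**
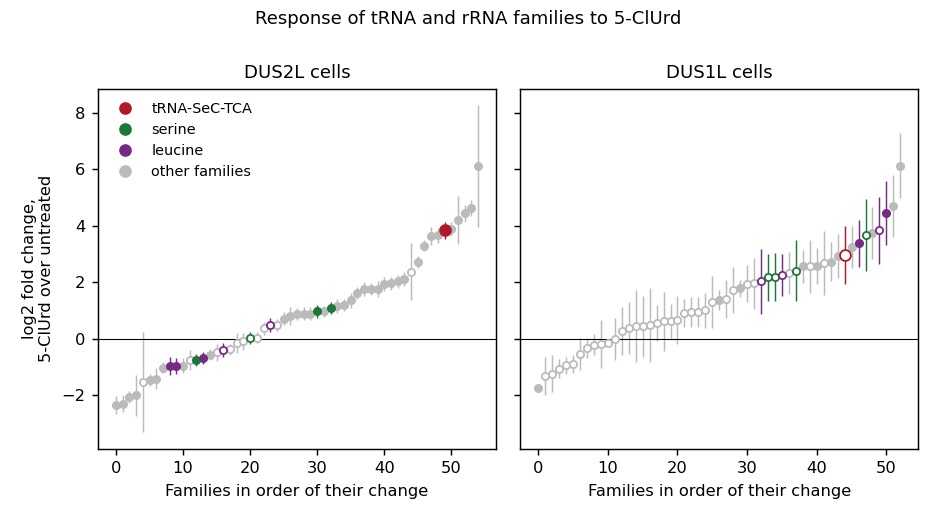
Change in share with 5-ClUrd on the log2 scale for each tRNA and rRNA family in DUS2L and in DUS1L cells, in order of change, with SE bars and filled symbols for an adjusted p under 0.05. The selenocysteine tRNA is at 3.83 in DUS2L cells, past the threshold, and at 2.96 in DUS1L cells, not past it, and the serine and leucine families are marked in their own colours.

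Selenocysteine tRNA shares its synthetase with the serine tRNAs and its long variable arm with the serine and leucine tRNAs, which were therefore set beside it. In DUS2L cells the 4 serine families did not move as one. tRNA-Ser-AGA changed by 0.96 (adjusted p = 0.00621) and tRNA-Ser-GCT by 1.08 (adjusted p = 0.00348), both higher with 5-ClUrd by edgeR's quasi-likelihood test. tRNA-Ser-TGA fell by 0.76 (adjusted p = 0.0130, edgeR's quasi-likelihood test), and tRNA-Ser-CGA, at 0.02 with an adjusted p of 0.938, did not pass. Of the 9 serine and leucine families, 2 were called higher and 4 lower in DUS2L cells, where 52.7% of all families were called higher, with a median of -0.40 on the log2 scale beside 0.86 over all families. None of the 4 serine families passed the test in DUS1L cells, with fitted changes of 2.16 to 3.67, and of the 9 serine and leucine families 2 passed, both higher, where 22.6% of all families did, with a median of 2.40 beside 1.35 over all families. Between treated libraries, 5 of the 9 families were called higher with DUS2L and none lower, where 38.2% of all families were called higher, with a median of 2.01 beside 0.49 over all families, and tRNA-Ser-AGA, at 2.01 (adjusted p = 0.0333, edgeR's quasi-likelihood test), was the serine family among them. Between untreated libraries 8 of the 9 were called higher with DUS2L and none lower, where 47.3% of all families were called higher, with a median of 5.25 beside 2.45 over all families.

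The families whose levels over the 8 libraries were most like those of the selenocysteine tRNA were tRNA-Gly-TCC (Pearson r = 0.956), tRNA-Gln-TTG (0.955), a family named tRNA-Asn-26 in the files (0.946), tRNA-Gly-GCC (0.931) and tRNA-Gln-CTG (0.911). Likeness was measured on log2(CPM + 1), where CPM is a family's counts scaled to library size, over libraries that differ in depth, and 54 other families were compared. In the shallow second untreated DUS1L library, tRNA-Gln-CTG held 9 counts and the others of these 5 families held 0, as did the selenocysteine tRNA. The serine families held 7 to 79 counts there. How far this library set the ranking was not tested. The 4 serine families ranked from 17 to 27 by r, which was between 0.602 and 0.744. By rank correlation 2 of the 5 families stayed among the 5 most like, and the serine families ranked from 4 to 24, with tRNA-Ser-AGA in the fourth place (rho = 0.952).

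Nearly all counts lay on 1 of the 2 references. tRNA-SeC-TCA-1-1 held 1215 and 1239 counts in treated DUS2L cells, against 24 and 40 in untreated DUS2L cells. It held 85 and 103 counts in treated DUS1L cells, against 3 and 0 in untreated DUS1L cells. tRNA-SeC-TCA-2-1 held 9 and 25 counts in treated DUS2L cells, against 2 and 7 in untreated DUS2L cells, and 4 and 3 in treated DUS1L cells, against 0 and 0. It made up 1.81% of the 2759 counts of both references, and reads common to both copies may have been given to either. In the treated DUS2L libraries, position 2 took 9 of 9 and 24 of 25 of its counts. Position 44 of this reference held counts in the untreated DUS2L libraries, 2 and 4, and 0 in all other libraries.

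Position 1 is the 5′ end of each reference. On tRNA-SeC-TCA-1-1, counts fell on 69 positions between 2 and 78, and no count lay beyond 78. The tRNA was divided into windows that follow its usual cloverleaf drawing, the 5′ side of the acceptor stem (1 to 9), the D arm (12 to 27), the anticodon arm (29 to 45), the variable arm (46 to 62), the T arm (63 to 77) and the 3′ side of the acceptor stem (78 to 87). These borders were set from general knowledge of the fold and could not be checked against a sequence here, so results are given by position. Window shares sum both references by the same position numbers, although the references differ in length.

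In treated DUS2L cells the counts formed a peak at position 2 and groups at 17 to 27, 34 to 39 and 69 to 71. Positions 1 to 9 held 37.7% and 39.9% of the counts in the replicates, positions 12 to 27 held 15.8% and 3.80%, positions 29 to 45 held 31.2% and 19.9%, and positions 63 to 77 held 9.80% and 29.4%. The replicates were therefore close at the 5′ end and differed in the other windows given, with 12 to 27 higher in the first and 63 to 77 higher in the second. Over the 65 positions with a count in either, the profiles correlated at r = 0.936, and at 0.693 without position 2. The corresponding r was 0.547 over 30 positions for treated DUS1L and 0.0674 over 12 positions for untreated DUS2L, where few counts define each profile.

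Position 2 was the highest position in both treated DUS2L libraries. It was also the lowest position with a sense-strand count on any tRNA reference of the series, so no position before it can be compared. On tRNA-SeC-TCA-1-1 it held 453 and 478 counts with DUS2L and 5-ClUrd, against 1 and 11 without treatment. In DUS1L cells it held 13 and 23 counts after treatment, against 0 and 0 without. Both treated DUS2L libraries exceeded both untreated ones. In the DUS1L comparison the first treated library, at 15.8 CPM, lay below what 3 counts would be in either untreated library, 20.8 and 407 CPM. The log2 change with treatment in DUS2L cells was 5.06 ± 0.66 (adjusted p = 1.77e-11, edgeR's quasi-likelihood test), and the pooled ratio was 31.9 (exact 95% interval 18.2 to 62.03). In DUS1L cells the same site, pooled over replicates, was 1.33-fold above a floor of 3 counts over the untreated group. It passed the threshold narrowly (adjusted p = 0.0486, edgeR's quasi-likelihood test), as the 1 site called of 6 tested on this tRNA. All 6 reached 10 counts only through the treated libraries, in a fit where 31.7% of all 4715 sites were called higher. Of 9 alternative fits, 8 did not keep that call.

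Position 2 also took a larger part of this tRNA than of most families. It held 37.7% and 39.7% of the selenocysteine tRNA counts in the treated DUS2L libraries, where the median over 48 and 49 families with at least 50 counts was 9.69% and 8.35%, and 2 families lay higher in each. In treated DUS1L libraries it held 15.7% and 21.7%, beside medians of 1.50% and 1.76% over 46 and 45 families, and 3 families lay higher in each. Serine families held 2.91% to 8.43% there in the first treated DUS2L library and 4.52% to 12.3% in the second. In treated DUS1L libraries they held 0.265% to 1.07% and 0.201% to 0.625%. The comparison of position 2 among families was chosen after the profile had been seen.

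**Figure D3:**
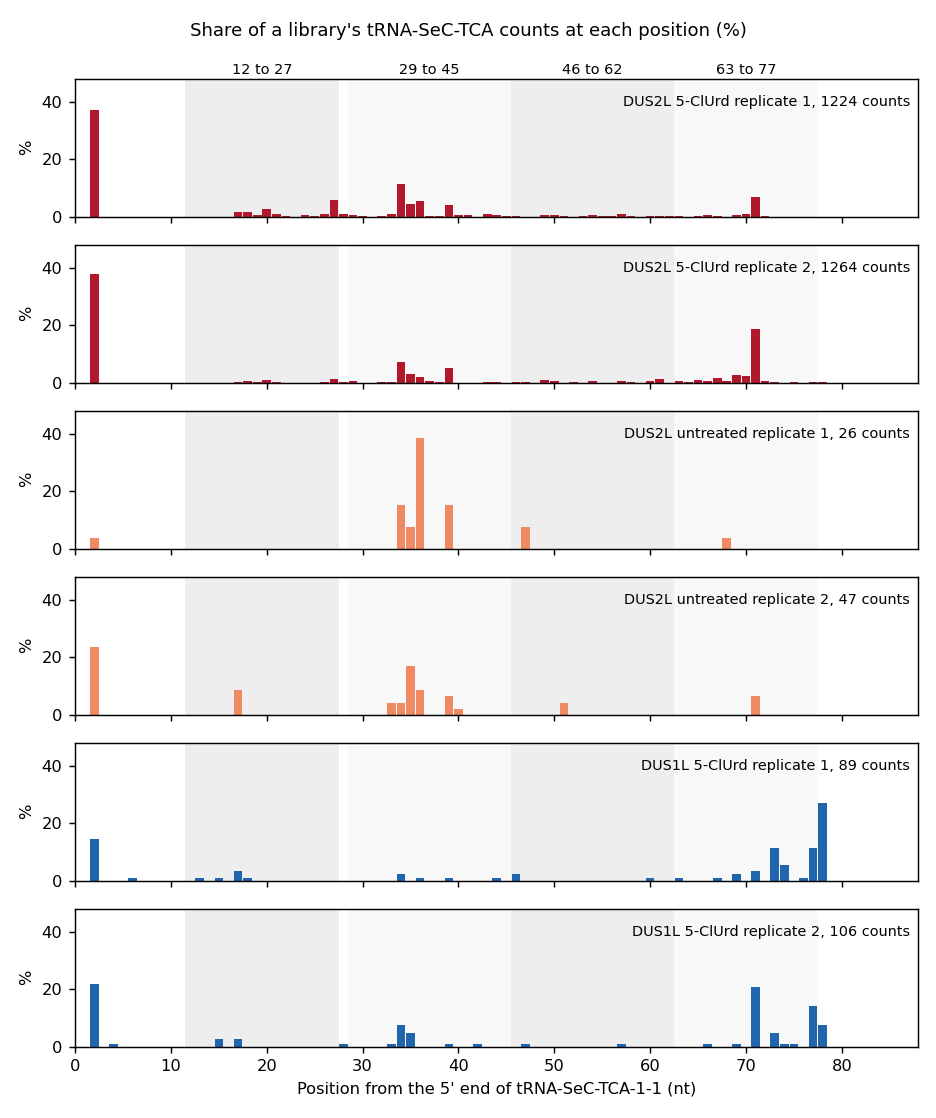
Counts at each position of tRNA-SeC-TCA-1-1 (nt from the 5′ end) as a share of all selenocysteine tRNA counts of the library, in percent, with a panel each for the replicates of treated DUS2L, untreated DUS2L and treated DUS1L and grey bands for windows of positions. Position 2 leads in both treated DUS2L libraries, position 36 leads in the first untreated DUS2L library with 10 of 26 counts, and positions 73 to 78 hold 56.2% and 28.3% in treated DUS1L.

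Of the 76 positions with a count, 34 reached the minimum of 10 counts in DUS2L cells. Only 3 of the 34 reached it in untreated cells alone and 24 had no untreated count. The direction was thus fixed by this minimum at those 24 and favoured by it at most others, so nothing is read from the direction. Of the 34, 8 were called higher with 5-ClUrd, beside 14.9% of 5140 sites called higher in that fit. The 8 positions were 2, 18, 20, 27, 34, 69, 70 and 71 of tRNA-SeC-TCA-1-1. Of these, only position 2 reached 10 counts in untreated cells alone. The others were tested only because of their treated counts, so their changes and p-values are given as description. At position 34, within the window drawn as the anticodon loop, there were 139 and 90 counts in treated cells, against 4 and 2 in untreated cells, and a log2 change of 3.89 ± 1.10 (adjusted p = 0.00427, edgeR's quasi-likelihood test). At position 71 there were 84 and 236 counts, against 0 and 3, and a log2 change of 5.45 ± 1.13 (adjusted p = 4.88e-05, edgeR's quasi-likelihood test). Treated and untreated libraries did not overlap at either position, and the treated replicates at position 71 differed from each other by far more than counting error.

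Positions 20 and 27 lie in the window drawn as the D arm, the part of a tRNA in which dihydrouridine is mostly found. Position 27 held 70 and 15 counts in treated DUS2L cells, against 0 and 0 in untreated cells (adjusted p = 0.00387, edgeR's quasi-likelihood test). Pooled over replicates, it was 11.7-fold above a floor of 3 counts over the untreated group. Position 20 held 35 and 11 counts against 0 and 0, a pooled 6.31-fold above that floor (adjusted p = 0.0155, edgeR's quasi-likelihood test). The first treated library held most of the counts at both. The second held 41.3 CPM at position 27 and 30.3 CPM at position 20. The floor was 9.93 CPM over the pooled untreated group, and 23.1 and 17.4 CPM in its single libraries. Positions 69 and 70 had no untreated counts either and were a pooled 5.35-fold and 5.49-fold above the pooled floor. These positions reached 10 counts only through the treated libraries, so higher was the only outcome open to them. Their p-values are given as description. These calls depended on the fit, and were lost in 4 of 10 alternatives at position 27, 6 of 9 at position 20, 5 of 8 at position 69 and 6 of 9 at position 70.

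Several positions with many counts did not pass the treatment test. Position 39 held 50 and 64 counts in treated DUS2L cells, against 4 and 3 in untreated cells (adjusted p = 0.0659, edgeR's quasi-likelihood test). Position 35 held 55 and 40 counts, against 2 and 8, with a pooled ratio of 3.91 (exact 95% interval 2.04 to 8.42). Position 36 held 67 and 25 counts, against 10 and 4, with an exact 95% interval of 1.53 to 5.14 for the pooled ratio. As shares of the library, treated and untreated did not overlap at positions 35 and 39 and overlapped at 36. The intervals at 35 and 36 lay below that of position 2, which began at 18.2. Without either untreated DUS2L library, none of the sites of any RNA was called in this comparison by edgeR's quasi-likelihood test, and 8 or 4 sites of this tRNA had an unadjusted p under 0.05.

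In untreated DUS2L cells the remaining counts were spread differently. Positions 29 to 45 held 22 of 26 and 24 of 47 counts, or 84.6% and 51.1%, where the treated libraries held 31.2% and 19.9%. The mean share of this window was thus 42.3 percentage points lower with 5-ClUrd, and treated and untreated libraries did not overlap (exact two-sided permutation p = 0.333, the smallest possible). These shares cover both references. On tRNA-SeC-TCA-1-1 alone the mean share was 66.7% in untreated and 25.9% in treated DUS2L cells. Position 2 of both references together held 1 of 26 and 14 of 47 counts, so that the untreated replicates differed there. The window's raw counts were still higher in treated cells, 382 and 252 against 22 and 24, while its part of the total was smaller. These counts are not scaled to depth. The treated libraries were deeper, with 370878 and 363024 sense counts against 130011 and 172078.

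Treated DUS1L cells had a different profile with far fewer counts. As in the family comparisons, enzyme and processing cannot be told apart in this difference of profiles. Positions 73 to 78, the interval of a deposited peak in 1 of these libraries, held 50 of 89 and 30 of 106 counts with DUS1L, or 56.2% and 28.3%. In treated DUS2L cells the same interval held 2 of 1224 and 12 of 1264 counts, or 0.163% and 0.949%. Position 78 held 0 and 2 counts with DUS2L, against 24 and 8 with DUS1L. Position 77 held 0 and 5 with DUS2L, against 10 and 15 with DUS1L, and position 73 held 1 and 3, against 10 and 5. At these positions treated DUS1L cells held more counts than treated DUS2L cells, in libraries that together held 1367178 sense counts, against 733902 with DUS2L.

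The mean share of positions 73 to 78 was 41.7 percentage points lower in treated DUS2L than in treated DUS1L, with no overlap between the groups. The interval was chosen after the profile was seen, as a peak of a treated DUS1L library, so this difference is a description with no test. Of the windows set from the fold, positions 29 to 45 differed by 39.8 points and positions 63 to 77 by -38.1 points between all 4 DUS2L libraries and the 3 DUS1L libraries with any count, each with an exact two-sided permutation p of 0.0571, the smallest that 4 against 3 allows. The exact two-sided permutation p was 0.743 for positions 1 to 9, 0.686 for 12 to 27, 0.171 for 46 to 62 and 0.286 for 78 to 87. These values are not adjusted over windows, and the comparison mixed treated and untreated libraries. One of the 3 DUS1L libraries in that comparison held 3 counts, at positions 9, 75 and 77.

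**Figure D4:**
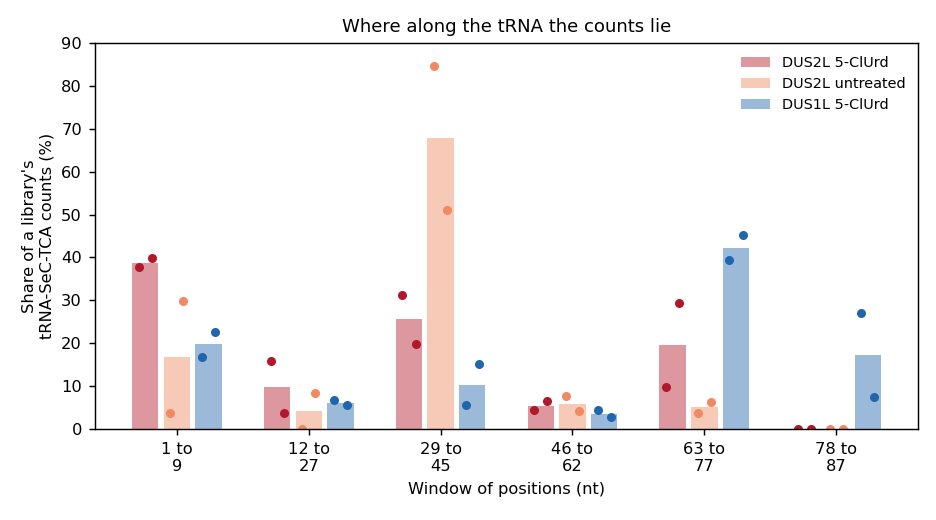
Share of selenocysteine tRNA counts in each window of positions, in percent, for treated DUS2L, untreated DUS2L and treated DUS1L, with bars for the mean and points for the 2 libraries of each group. Positions 1 to 9 hold 38.8% with treated DUS2L and 19.7% with treated DUS1L, and positions 78 to 87 hold 0.0791% and 17.3%.

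Between treated enzymes 37 positions of this tRNA were tested, of which 28 reached 10 counts only through treated DUS2L. Among these, 15 had no count outside treated DUS2L, so their direction was fixed by this minimum. At the rest of the 28 the minimum favoured higher counts with DUS2L. Of the 37, 33 were called higher with DUS2L, beside 23.2% of 7873 sites called higher in that fit, and nothing is read from that count. The test is on shares of the library, so the difference in the tRNA's total described above is part of each call. Enzyme and processing cannot be told apart in these calls either. Position 2 was higher with DUS2L by 5.45 ± 1.00 on the log2 scale (adjusted p = 7.84e-07, edgeR's quasi-likelihood test), and position 71 by 4.33 ± 1.04 (adjusted p = 0.000152, edgeR's quasi-likelihood test). At position 71 treated DUS2L libraries held 84 and 236 counts, against 3 and 22 in treated DUS1L libraries. Position 27 had no count in treated DUS1L cells. Pooled over replicates, treated DUS2L was 52.8-fold above a floor of 3 counts over the treated DUS1L group. The 2 treated DUS2L libraries held 188.7 and 41.3 CPM there. The floor was 2.19 CPM over the pooled treated DUS1L group, and 3.64 and 5.53 CPM in its single libraries.

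The 4 positions not called were 17, 73, 77 and 78. At position 17 treated DUS2L cells held 20 and 4 counts, against 3 and 3 in treated DUS1L cells, with a log2 difference of 2.75 and an adjusted p of 0.0546 (edgeR's quasi-likelihood test). At position 78 the log2 difference was -2.85 with an adjusted p of 0.0923 (edgeR's quasi-likelihood test), and the pooled ratio of shares was 0.116, from 2 counts against 32, with an exact 95% interval of 0.0135 to 0.456. The ratio at position 77 was 0.373 (exact 95% interval 0.111 to 0.991) and at position 73 it was 0.497 (0.120 to 1.56). DESeq2 turned the sign of the log2 difference at 73 (0.56) and 77 (0.10). The intervals at 77 and 78 lay below 1, and they cover counting error, not the spread between replicates.

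The deposited peaks, called by the authors in each library, gave 7 intervals on tRNA-SeC-TCA-1-1. Treated DUS2L libraries had peaks at 34 to 36, with 261 counts, in the first and at 34 to 39, with 230 counts, and 69 to 71, with 297 counts, in the second. Untreated DUS2L libraries had peaks at 34 to 39, with 20 counts, and 33 to 36, with 16 counts. Treated DUS1L libraries had 1 peak each, at 73 to 78 with 50 counts and at 34 to 35 with 13 counts, and untreated DUS1L libraries had none. The interval at 34 to 36 was thus covered, wholly or in part, by a peak in 5 of 6 libraries with a peak on this tRNA.

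No deposited peak on this tRNA held position 2, its most frequent site, although each library had between 1 and 16 peaks on other tRNAs that did. On the opposite strand the selenocysteine references held 0 and 1 counts in treated DUS2L libraries, 3 and 0 in untreated DUS2L, 3 and 2 in treated DUS1L and 6 and 0 in untreated DUS1L. In the first untreated DUS1L library the antisense counts thus outnumbered the 3 sense counts.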

How the data were processed

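The authors' deposited site files give whole-number counts of crosslink events per position and strand, with no normalization found in the values, and the deposited peak scores are counts summed over the sites inside. STAR 2.7.0f and hg38 are named, per the submitters' processing notes. How peaks were called and how molecular identifiers and multi-mapping reads were handled is not given in the sources used here, nor whether a site is the first base of a read or the base before it. The DUS2L file names mention premapping to non-coding RNA and those of DUS1L do not.

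Sense-strand counts were summed to 50 tRNA and 5 rRNA families and tested by family and by site, where at least 10 counts were present, with edgeR 4.0.16 (quasi-likelihood F test, R 4.3.3), total sense counts as library size, and Benjamini-Hochberg adjustment over all features at 0.05. Treatment was tested in the 4 libraries of each enzyme, and other contrasts in all 8. The SE of an edgeR change was derived as the absolute log2 change divided by the square root of the F statistic. Pooled ratios have exact conditional 95% intervals, and group shares were compared by exact permutation. The code was tested on simulated data. Tables were made in Python 3.11.15 (scipy 1.17.1, pandas 2.3.3, numpy 2.4.6) and figures with matplotlib 3.10.9.

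The rule for named items took both references, the 10 positions of highest treated share per enzyme, the 5 families of highest likeness and the serine families. Members, lists and tests were chosen with earlier results of these data known, and the intervals 73 to 78, 69 to 71, 34 to 36 and 17 to 27 after the profile was seen. Alternatives were TMM, DESeq2 1.42.0, other count minimums, a replicate block, one fit of all libraries, sites above 500 counts left out, each site counted once, and each library left out.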

Additional observations from a re-analysis of the deposited data

How the results depend on the processing

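The selenocysteine tRNA kept its direction and its call under every alternative run in 2 comparisons, 5-ClUrd against untreated in DUS2L cells (3.09 to 4.08 on the log2 scale) and treated DUS2L against treated DUS1L (4.07 to 4.97). In DUS1L cells the change stayed positive and passed the threshold with a minimum of 50 counts (2.96, adjusted p = 0.0498, edgeR) and with one fit of all 8 libraries (2.94, adjusted p = 0.00981, edgeR). Leaving out a library gave 2.51 to 9.12 there, -4.87 to 1.38 for the difference of effects and 3.35 to 9.36 between untreated enzymes, with 9.12, -4.87 and 9.36 from leaving out the first untreated DUS1L library, whose group then holds no count. The labels do not say that replicate numbers mark a shared origin. Deviations of replicate 1 correlated at 0.0275 in DUS1L and 0.410 in DUS2L over 55 families. With the replicate block the family changed by 3.84 in DUS2L cells, 2.63 in DUS1L cells, 1.30 for the difference, 4.81 between treated and 3.50 between untreated enzymes, with no change of call. Families called within DUS1L cells, 13, became 27 with one fit of all libraries, 4 without sites above 500 counts, and 1 to 35 with a library left out. Within DUS2L cells 42 became 27 with one fit and 26 to 46 with a library left out, and the 16 of the difference became 5 to 28. Selenocysteine sites called in DUS2L cells, 8, became 3 with a minimum of 1 count, 5 with 50, 4 with the block, 4 with TMM and 0 to 5 with a library left out. The 1 call in DUS1L cells became 0 with DESeq2, a minimum of 1, one fit and TMM, and 0 to 2 with a library left out. With the block the 1 call was position 78. Between treated enzymes 33 became 8 with DESeq2, 7 of 7 tested with a minimum of 50, 8 with the block and 9 to 18 with a library left out. Calls at positions 2, 34 and 71 in DUS2L cells were lost only without an untreated library, while those at 20, 27, 69 and 70 were lost in 6 of 9, 4 of 10, 5 of 8 and 6 of 9 alternatives. DESeq2 turned the sign at position 34 in DUS1L cells (-0.094) and, between treated enzymes, at 73 (0.56) and 77 (0.10). Over all RNAs, sites called within DUS1L cells, 1604, ranged down to 97 (DESeq2), those within DUS2L cells, 1639, to 0 (without either untreated library; 398 with a minimum of 1) and those between treated enzymes, 4122, to 1867 (block). Counting each site once gave shares of 0.673% (DUS2L treated), 0.146% (DUS2L untreated), 0.292% (DUS1L treated) and 0.0372% (DUS1L untreated), and leaving out sites above 500 counts gave 0.920%, 0.0619%, 0.0361% and 0.00365% in that order. With each site counted once, treated DUS2L minus treated DUS1L was -5.18 points at 1 to 9, 6.99 at 29 to 45, 15.1 at 46 to 62 and -3.31 at 78 to 87, and treated minus untreated DUS2L was -9.41 at 1 to 9. Without the first treated DUS2L library, positions 12 to 27 differed by -2.40 points from treated DUS1L and by -0.458 from untreated DUS2L, against up to 9.65 and 11.6 with other libraries left out. Rank correlation kept 2 of the 5 most like families. Where a result changed, the cause was not tested unless a library without counts is named.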
